A study of Mus musculus with 12 samples.

Results

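Cathepsins are the peptidases that break down proteins inside lysosomes, and cystatin C is the secreted protein that inhibits those of the cysteine class. The genes described here are 9 cathepsins (Ctsa, Ctsb, Ctsc, Ctsd, Ctsh, Ctsk, Ctsl, Ctss and Ctsz) and the cystatin C gene Cst3. They were chosen by name, as the cathepsins of the macrophage lysosome with their main secreted inhibitor, and with earlier results of these data known. They form 10 of the 36439 genes in the count tables. All 10 passed the filter on low counts in both comparisons.

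Their transcripts were counted in 12 RNA sequencing libraries from macrophages of solid tumours, known as tumour-associated macrophages (TAMs). The tumours were Lewis lung carcinomas, a mouse lung cancer line that can be transplanted, implanted subcutaneously here in C57BL/6 mice. The libraries form 4 groups of 3. MRC1+ TAMs were sorted for F4/80, a surface protein of mouse macrophages, and for the mannose receptor MRC1. CD11c+ TAMs, their counterpart, were sorted for F4/80 and for the integrin CD11c. In the second experiment F4/80+ TAMs overexpressed miR-511-3p, a microRNA made from a hairpin within the Mrc1 gene, or, as its control, a mutated miR-511-3p. Both constructs carry the tag SFFV in their titles, so the control cells bear the vector as well, while the sources used here do not give the share of cells that carried it. The labels give neither the age nor the sex of the mice. Replicates are numbered, but no label says that each is another mouse or tumour, and the p-values below therefore cover the spread among these libraries only, which could be technical.

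Lysosomal cathepsins are made as inactive precursors, tagged with mannose 6-phosphate in the Golgi, carried to acidic compartments and activated there by cleavage. In macrophages and dendritic cells they degrade ingested proteins, trim the invariant chain that occupies the groove of MHC class II molecules, and, once secreted, cut extracellular matrix. Cystatin C binds the active site of cysteine cathepsins, while cathepsin D, an aspartic peptidase, and cathepsin A, a serine carboxypeptidase, lie outside its reach.

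Gene reads per library numbered 15664146 to 17689064 for MRC1+ and 10824918 to 17318957 for CD11c+ cells. With miR-511-3p they numbered 23326219 to 27186233, and with the mutated form 22906418 to 27890433. The labels were checked against marker genes. The sort genes followed them, with Mrc1 at 3611 ± 265 CPM (reads relative to the library total, scaled) in MRC1+ and 1547 ± 184 in CD11c+ TAMs (mean ± SD, n = 3 each). Itgax, which encodes CD11c, stood at 97.3 ± 21.1 CPM in MRC1+ and 946 ± 53.5 in CD11c+ TAMs. Mir511, the hairpin gene, rested on few reads, 209 in miR-511-3p against 17 in mutated libraries and 39 in MRC1+ against 8 in CD11c+ libraries. The cause of these low counts was not tested. Summed over 6 macrophage markers, 2 of them higher in MRC1+ TAMs, the level was 6812 to 8966 CPM in MRC1+ and 6386 to 8166 in CD11c+ libraries. It was 7972 to 9341 CPM in miR-511-3p and 7873 to 9917 in mutated libraries. Of 10 dendritic cell markers, 9 were lower in MRC1+ TAMs, and the summed level of all 10 was at most 53.3 CPM in MRC1+ against 345 to 606 in CD11c+ libraries, with none at 0 in either group. Of 6 genes listed as epithelial markers 4 were higher and 2 lower, at 150 to 219 CPM in sum in MRC1+ and 124 to 178 in CD11c+ libraries. These sums include the chromatin protein gene Hmga2, at 82.4 to 119 CPM in MRC1+ and 33.4 to 71.1 in CD11c+ libraries, scaled over 12 libraries. Of 6 endothelial markers, 4 of them tested, 1 was higher and 2 lower in MRC1+ TAMs. They summed to 32.2 to 41.9 CPM in MRC1+ and 82.4 to 125 in CD11c+ libraries. In addition, 2 T and NK cell markers and 1 neutrophil marker were lower, with summed levels that overlapped between the groups. The first CD11c+ library stood apart from its group, with a summed level of 8 fibroblast markers of 1406 CPM against 321 and 388 in the other two and 758 to 1037 in MRC1+ libraries. The third mutated miR-511-3p library stood apart likewise, with fibroblast markers at 708 CPM against 180 and 191 in the other two and 93.0 to 279 in miR-511-3p libraries. Results are given with and without these libraries where they change. Because the samples are bulk, fewer cells of a type and less RNA per cell cannot be told apart.

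The comparison of MRC1+ with CD11c+ TAMs asked which cathepsin transcripts separate the sorted populations. The genes moved in both directions. Transcripts of Ctsb, Ctsd and Ctsl were about 1.5-fold higher in MRC1+ TAMs, and those of Ctsh, Ctsz and Cst3 were lower. In the quasi-likelihood test of edgeR with Benjamini-Hochberg adjustment over all tested genes, 6 of the 10 passed an adjusted p of 0.05, where 16.6% of all 15622 tested genes did. The 3 higher genes stand beside a background of 6.91% higher and the 3 lower genes beside 9.71% lower. For 7 of the 10 every library of one group lay outside the range of the other, against 38.3% of all tested genes. The median log2 fold change was -0.33 over the 10 genes and 0.01 over all tested genes.

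Ctsb encodes cathepsin B, a cysteine peptidase that both cuts within proteins and removes dipeptides from their ends. It had 4018, 3289 and 3650 CPM in MRC1+ TAMs, against 2237, 2576 and 2755 CPM in CD11c+ TAMs, scaled with edgeR's TMM factors. Every MRC1+ library lay above every CD11c+ library. The log2 fold change was 0.53 ± 0.13 (SE), with an adjusted p of 0.0250 in the edgeR quasi-likelihood test, Benjamini-Hochberg adjustment. Ctsl, the gene of cathepsin L, a cysteine endopeptidase of the lysosome, had 1292, 1058 and 1162 CPM in MRC1+ TAMs, against 760, 727 and 804 CPM in CD11c+ TAMs. The lowest MRC1+ library was again above the highest CD11c+ library, and the CD11c+ libraries lay close together. Its log2 fold change was 0.62 ± 0.11 (adjusted p = 0.00661, same edgeR test with Benjamini-Hochberg adjustment). Ctsd encodes cathepsin D, the main aspartic endopeptidase of lysosomes. It had 1383, 1197 and 1504 CPM in MRC1+ TAMs, against 764, 815 and 1087 CPM in CD11c+ TAMs. The third CD11c+ library came nearest to the MRC1+ range without entering it, and the log2 fold change was 0.62 ± 0.16 (adjusted p = 0.0313, same edgeR test with Benjamini-Hochberg adjustment). Ctsl passed in all 14 alternative fits. Ctsb and Ctsd passed in 10 each and missed when any MRC1+ library or the second CD11c+ library was left out, with adjusted p of 0.0516 to 0.0879 and 0.0540 to 0.119 in those edgeR fits with Benjamini-Hochberg adjustment.

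Promoter windows of Ctsd, Ctsl and Ctsa are printed because these genes carry the letters CACGTG, the core of the E-box that factors of the TFEB family bind, and because Ctsd and Ctsl were higher together while Ctsa was not. RefSeq on GRCm38.p6 gave windows of 300 bases, 250 before and 50 after the annotated start, for 8 of the 10 genes, with 2 starts for Ctsa and no entry for Ctsb and Ctsh. Capitals mark CACGTG, which reads the same on both strands, together with a T directly before it or an A directly after it. The motif was chosen after the windows had been read. The windows lie at chr7:142387778-142388077 (minus strand) for Ctsd, at chr13:64370471-64370770 (minus strand) for Ctsl and at chr2:164833523-164833822 (plus strand) for the second start of Ctsa.
Ctsd promoter: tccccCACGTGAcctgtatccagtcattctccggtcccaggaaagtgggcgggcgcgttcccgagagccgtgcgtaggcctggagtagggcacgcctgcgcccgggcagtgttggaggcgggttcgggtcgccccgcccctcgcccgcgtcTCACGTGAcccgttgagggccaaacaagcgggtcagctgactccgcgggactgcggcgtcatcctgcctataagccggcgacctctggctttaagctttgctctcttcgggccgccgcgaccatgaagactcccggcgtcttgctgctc
Ctsl promoter: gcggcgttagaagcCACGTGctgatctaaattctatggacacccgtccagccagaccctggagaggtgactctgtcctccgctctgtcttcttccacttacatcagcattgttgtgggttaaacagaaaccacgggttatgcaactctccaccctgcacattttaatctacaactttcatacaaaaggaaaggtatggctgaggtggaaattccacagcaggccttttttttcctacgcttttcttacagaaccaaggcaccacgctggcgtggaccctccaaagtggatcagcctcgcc
Ctsa promoter, second start: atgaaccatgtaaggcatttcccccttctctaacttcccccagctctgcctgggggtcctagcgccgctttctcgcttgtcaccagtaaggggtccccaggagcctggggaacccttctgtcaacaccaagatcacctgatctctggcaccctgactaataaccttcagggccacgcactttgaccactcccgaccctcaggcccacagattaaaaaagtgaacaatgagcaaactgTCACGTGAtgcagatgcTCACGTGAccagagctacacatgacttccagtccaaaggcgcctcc
Counted from the 5′ end of each window, CACGTG begins at bases 6 and 153 in Ctsd, at base 15 in Ctsl and at bases 239 and 256 in Ctsa. It was present in the windows of these 3 genes among the 8, and in 7.15% of the 32851 mouse windows of the same length. The match describes the letters and not a bound site. The windows of Ctsc, Ctsk, Ctss, Ctsz and Cst3 did not hold these letters.

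Ctsh and Ctsz ran the other way. Ctsh encodes cathepsin H, a cysteine aminopeptidase. It had 276, 251 and 227 CPM in MRC1+ TAMs, against 361, 446 and 473 CPM in CD11c+ TAMs. The groups did not overlap, and the log2 fold change was -0.76 ± 0.13 (adjusted p = 0.00532, edgeR quasi-likelihood test, Benjamini-Hochberg adjustment), past the threshold in all 14 alternative fits. Ctsz encodes cathepsin Z, a cysteine carboxypeptidase. It had 634, 548 and 570 CPM in MRC1+ TAMs, against 672, 805 and 925 CPM in CD11c+ TAMs. Here the first library of each group came close to the other group, and the log2 fold change of -0.45 ± 0.13 passed only just (adjusted p = 0.0499, same edgeR test with Benjamini-Hochberg adjustment). With the replicate number as a block the adjusted p of Ctsz in edgeR was 0.0674 after Benjamini-Hochberg adjustment. It also missed the threshold without any 1 library other than the first CD11c+ one, up to an adjusted p of 0.163 in edgeR with Benjamini-Hochberg adjustment, and passed in 5 of the 14 alternatives.

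Ctsc, the gene of cathepsin C, a dipeptidyl peptidase that activates serine proteases of granules, had 2373, 2206 and 2027 CPM in MRC1+ TAMs, against 2475, 3123 and 3042 CPM in CD11c+ TAMs. The groups did not overlap, but the log2 fold change of -0.39 ± 0.13 did not pass (adjusted p = 0.0724, edgeR quasi-likelihood test, Benjamini-Hochberg adjustment). Without the first CD11c+ library it was -0.49 (adjusted p = 0.0113, same edgeR test with Benjamini-Hochberg adjustment). Ctss encodes cathepsin S, the peptidase that makes the last cuts in the invariant chain in dendritic cells and macrophages. It had 2467, 1903 and 1831 CPM in MRC1+ TAMs, against 2307, 2503 and 2699 CPM in CD11c+ TAMs. The first MRC1+ library lay within the CD11c+ range, and the log2 fold change of -0.28 ± 0.14 had a 95% interval of -0.60 to 0.05 (adjusted p = 0.209, same edgeR test with Benjamini-Hochberg adjustment).

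Cst3, the inhibitor, had the lowest fold change of the 10. It had 303, 271 and 286 CPM in MRC1+ TAMs, against 438, 470 and 654 CPM in CD11c+ TAMs. The MRC1+ libraries lay close together and all below the CD11c+ libraries, of which the third was the highest. The log2 fold change was -0.86 ± 0.15, a 95% interval of -1.21 to -0.51 (adjusted p = 0.00754, edgeR quasi-likelihood test, Benjamini-Hochberg adjustment), and it passed in all 14 alternative fits. The 10 dendritic cell markers, 9 of them lower, summed to at most 53.3 CPM in MRC1+ and 345 to 606 CPM in CD11c+ libraries. They move with the lower levels of Cst3, Ctsh and Ctsz, and their part in these results was not tested.

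Ctsk encodes cathepsin K, the collagen-cutting cysteine peptidase best known from osteoclasts. It had 218, 335 and 370 CPM in MRC1+ TAMs, against 426, 349 and 678 CPM in CD11c+ TAMs. The groups overlapped and the spread was the widest of the 10, with a log2 fold change of -0.65 ± 0.27 and a 95% interval, for the gene alone, of -1.27 to -0.034 (adjusted p = 0.132, edgeR quasi-likelihood test, Benjamini-Hochberg adjustment). DESeq2 gave Ctsk an adjusted p of 0.0377, and edgeR without a filter on low counts gave 0.0322, both after Benjamini-Hochberg adjustment. Ctsa encodes cathepsin A, which also protects β-galactosidase and neuraminidase in a lysosomal complex. It had 435, 413 and 395 CPM in MRC1+ TAMs, against 353, 484 and 481 CPM in CD11c+ TAMs. All MRC1+ libraries lay within the CD11c+ range, and the log2 fold change of -0.08 had a 95% interval of -0.39 to 0.22.

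Without the first CD11c+ library, the one with the high fibroblast markers, 7 of the 10 genes passed, the same 6 and Ctsc. In that fit 29.6% of all 15926 tested genes passed, against 16.6% in the main fit. All 8 fibroblast markers were then called higher in MRC1+ TAMs, with a median log2 fold change of 1.35. The main fit called 0 of the 8, with a median of 0.43. Their part in the results was not tested. Among the 10 genes the log2 fold changes without that library were 0.45 for Ctsb, 0.52 for Ctsd and 0.61 for Ctsl. Those of the lower genes were -0.87 for Ctsh, -0.57 for Ctsz and -0.97 for Cst3. No gene of the 10 changed direction in any of the 14 alternative fits of this comparison.

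**Figure D1:**
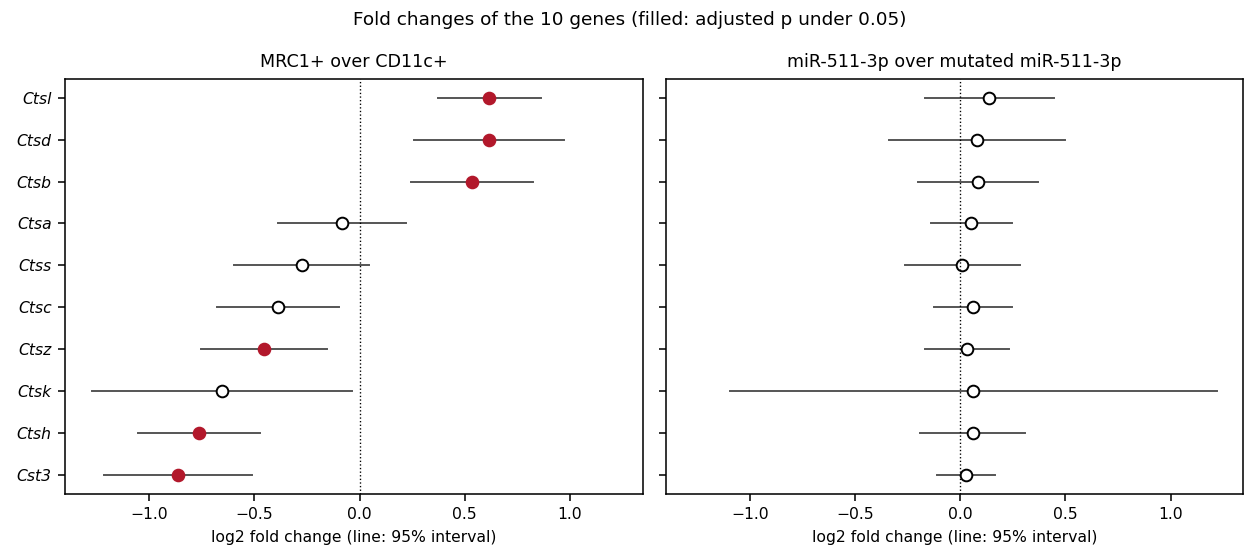
Log2 fold changes of the 10 genes (points) with 95% intervals (lines) for MRC1+ over CD11c+ TAMs on the left and miR-511-3p over mutated miR-511-3p TAMs on the right, filled where the adjusted p of edgeR's test was under 0.05. On the left Ctsl, Ctsd and Ctsb lie above 0 and Ctsz, Ctsh and Cst3 below it, and on the right every interval spans 0, widest for Ctsk.

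The plot of fold changes sets both comparisons on the same axis. Under miR-511-3p none of the 10 genes passed, where 0% of the 14054 tested genes did in the edgeR quasi-likelihood test, Benjamini-Hochberg adjustment. At an unadjusted p under 0.05 stood 343 genes, none of them among the 10. DESeq2 called 1 gene in all, as did the edgeR fits with the replicate block and with all 12 libraries, and no gene of the 10 was called in any alternative. The libraries overlapped for all 10 genes, where 6.38% of all tested genes did not overlap.

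The mature microRNA is shown with its seed, bases 2 to 8, in capitals, since the seed defines which 3′ UTR letters it can pair with. It lies at chr2:14261051-14261072 on the plus strand of GRCm38.p6 in RefSeq.
miR-511-3p: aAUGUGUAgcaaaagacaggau
Matches of 7 or 8 letters to the seed were sought in the longest 3′ UTR of each gene in GENCODE M21, on the transcribed strand. Ctsb held 2 and Ctsd held 1, shown because these were the only matches among the 10 genes. The Ctsb sites pair with the whole seed and begin at bases 1742 and 1760 of a 3′ UTR of 3594 bases. The Ctsd site pairs with the seed but for its last base, with an A opposite the first base of the microRNA, and begins at base 85 of 660. Capitals mark the matched letters.
Ctsb site 1: gattctgtgttTACACATccctacctttc
Ctsb site 2: ccctacctttcTACACATtagactagaac
Ctsd site: ctgccccactcACACATAgtcacactcgc
Of 21011 mouse genes with a 3′ UTR of at least 20 bases, 20.1% held such a match.

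Ctsb had 4675, 5063 and 4043 CPM in miR-511-3p TAMs, against 4722, 4487 and 3790 CPM in mutated miR-511-3p TAMs. The ranges of the groups overlapped, and the log2 fold change of 0.08 ± 0.12 had a 95% interval of -0.20 to 0.37. Ctsd had 1854, 1868 and 1345 CPM in miR-511-3p TAMs, against 1734, 1804 and 1257 CPM in mutated miR-511-3p TAMs. The third library was the lowest in both groups, and the log2 fold change of 0.08 ± 0.18 had an interval of -0.34 to 0.50. Within same-numbered pairs Ctsd was higher with miR-511-3p in 3 of 3 and Ctsb in 2 of 3. With the replicate block the intervals were narrower, -0.08 to 0.24 for Ctsd and -0.11 to 0.28 for Ctsb, and spanned 0 as well.

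Cst3 was the most even of the 10 genes, at 414, 441 and 436 CPM in miR-511-3p TAMs, against 418, 424 and 424 CPM in mutated miR-511-3p TAMs. Its log2 fold change of 0.03 had an interval of -0.11 to 0.16. Ctsk was the least even, at 134, 30.2 and 76.4 CPM in miR-511-3p TAMs, against 50.4, 89.0 and 91.2 CPM in mutated miR-511-3p TAMs. Its highest and its lowest library both carried miR-511-3p, and the interval of its log2 fold change of 0.06 ± 0.49 ran from -1.10 to 1.22. For the other genes the log2 fold change lay between 0.01 for Ctss and 0.14 for Ctsl. All 10 lay above 0, with a median of 0.06 against 0.003 over all tested genes. Without the third mutated library, the one with the high fibroblast markers, 5 of the 10 lay below 0 (Ctsa, Ctsb, Ctsd, Ctss and Ctsz). Without the first miR-511-3p library 3 lay below 0, and without the first mutated library 2 did. The shared sign thus depends on single libraries.

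**Figure D2:**
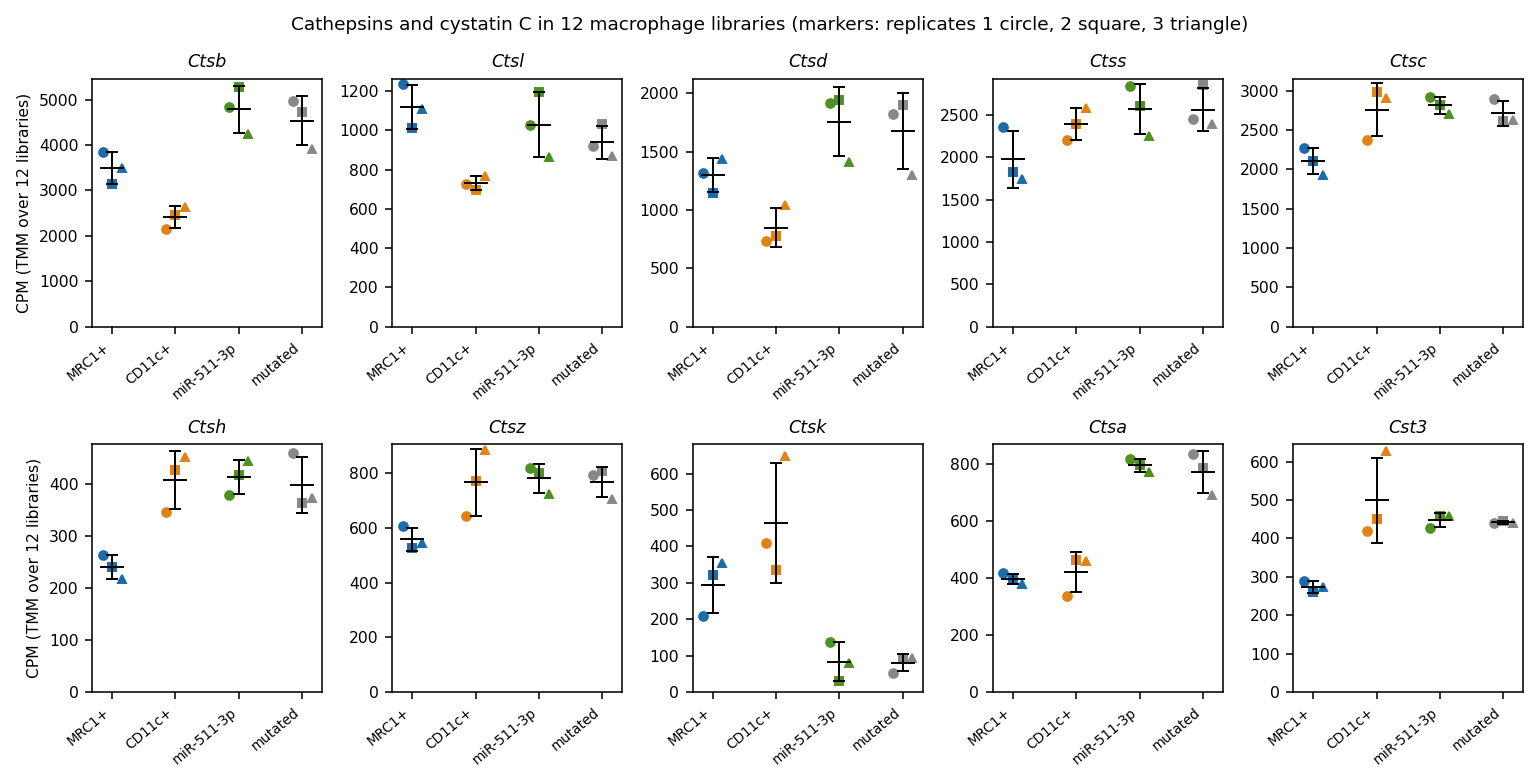
CPM of each gene in every library, scaled together over the 12 libraries, with the mean (long bar) and SD (short bars) of each group of 3 and marker shapes for replicates 1 to 3. Ctsb, Ctsd and Ctsl are lowest in CD11c+ TAMs, Ctsh, Ctsz and Cst3 in MRC1+ TAMs, and Ctsa, Ctsb and Ctsk separate the sorted from the overexpression libraries.

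The plot of levels by library places the 4 groups side by side on a common scale. The sorted and the overexpression libraries belong to separate experiments, so a difference of cells and a difference of library preparation cannot be told apart, and no test was made between them. Reads over no gene made up 19.7% to 26.6% of each sorted and 7.64% to 10.4% of each overexpression library. In the order of group means, miR-511-3p and mutated libraries overlapped for all 10 genes. Ctsh, Ctsc, Ctsz and Cst3 were lowest in MRC1+ TAMs, and for these 4 the MRC1+ range lay apart from that of the next higher group, while the ranges of neighbouring groups above it overlapped. Ctsb, Ctsd and Ctsl were lowest in CD11c+ TAMs, with a range apart from the next higher group. Ctss ranges overlapped between all neighbouring groups.

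The overexpression and the sorted libraries had separate ranges for Ctsa, Ctsb and Ctsk and overlapping ranges for the other 7 genes. For Ctsb the gap was narrow, with 3922 CPM in the lowest overexpression and 3839 CPM in the highest sorted library. Ctsa averaged 794 ± 22.4 CPM in miR-511-3p and 770 ± 73.0 in mutated libraries, 396 ± 19.2 in MRC1+ and 420 ± 71.5 in CD11c+ libraries (SD, n = 3 each). Ctsk averaged 83.6 ± 53.9 CPM in miR-511-3p and 80.4 ± 23.6 in mutated libraries, 294 ± 76.2 in MRC1+ and 464 ± 165 in CD11c+ libraries. Together the 10 genes took 1.28 ± 0.0808% of gene reads in MRC1+ and 1.16 ± 0.0734% in CD11c+ libraries, and 1.48 ± 0.106% in miR-511-3p and 1.43 ± 0.0908% in mutated libraries.

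Levels between genes were compared per kilobase of merged exons. Ctss was the highest of the 10 in every group, at 1455 ± 245 CPM per kilobase in MRC1+ and 1765 ± 138 in CD11c+ TAMs. It stayed highest with the longest or the principal transcript as the length. Next in MRC1+ TAMs came Ctsb at 577 ± 57.0 and Ctsd at 553 ± 62.1 CPM per kilobase, which do not differ beyond their spread. In CD11c+ TAMs Ctsz at 532 ± 83.9 and Ctsc at 475 ± 58.1 CPM per kilobase came next, and neither Ctsz and Ctsc nor Ctsc and Ctsb, at 399 ± 41.6, differ beyond their spread. At the low end, Ctsh stood at 53.4 ± 5.16 and Ctsa at 84.0 ± 4.07 CPM per kilobase in MRC1+ TAMs, against 90.8 ± 12.4 and 89.2 ± 15.2 in CD11c+ TAMs. Apart from Ctss and Ctsk, the order of the genes, those named here included, depends in part on the length used. With the principal transcript Ctsc came second in MRC1+ TAMs, at 845 CPM per kilobase against 736 for Ctsb. There Ctsh, at 149 CPM per kilobase, also stood above Ctsa, at 109.

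The level of the inhibitor was also set against that of its targets. Cst3 per kilobase came to 6.78 ± 0.357% of the summed level of the 7 cysteine cathepsins in MRC1+ TAMs and 10.6 ± 1.25% in CD11c+ TAMs. It came to 8.88 ± 1.09% in miR-511-3p and 8.92 ± 0.580% in mutated libraries. The highest MRC1+ library was at 7.12% and the lowest CD11c+ library at 9.76%, so the sorted groups did not overlap, while the overexpression groups did. With the longest transcript as the length the values were 8.63% in MRC1+ and 13.6% in CD11c+ TAMs. These are transcript ratios and say nothing of protein or activity.

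**Figure D3:**
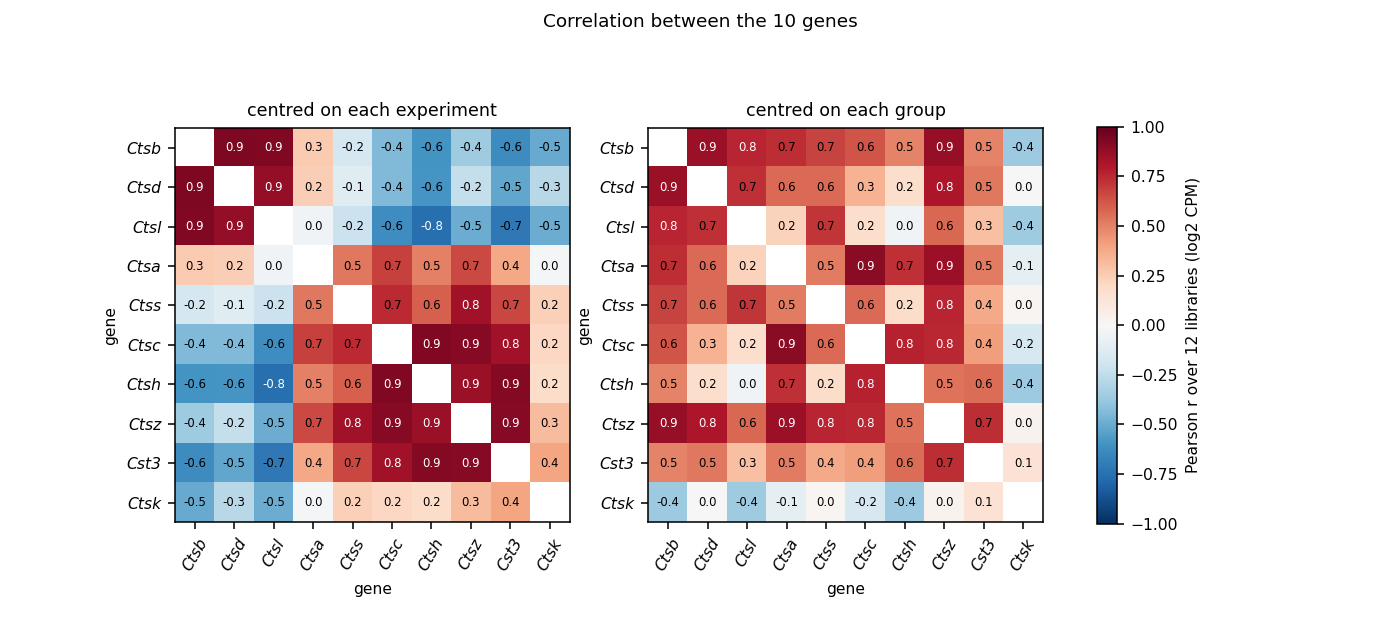
Pearson correlation (colour and number) of log2 CPM between each pair of the 10 genes over 12 libraries, after centring on the mean of each experiment (left) or of each group of 3 (right). On the left Ctsb, Ctsd and Ctsl form a block of high values set against Ctsc, Ctsh, Ctsz and Cst3, and on the right that opposition is gone.

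The plot of correlations shows how the genes varied together. With each experiment centred on its own mean, Ctsb, Ctsd and Ctsl correlated at 0.88 to 0.94 with each other over 12 libraries, and Ctsc, Ctsh, Ctsz and Cst3 at 0.84 to 0.93. Between these blocks the values ran from -0.75 to -0.24. This centring keeps the difference between the sorted groups, which the blocks follow. With each group of 3 centred on its own mean, the first block stood at 0.73 to 0.87 and the second at 0.42 to 0.77. Between the blocks the values then ran from -0.04 to 0.87, so the opposition of the blocks was not seen within groups. The libraries differ in depth and in the markers of other cells, and same-numbered libraries deviate together, so these correlations are descriptions with no test.

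The genes most alike to each were found by the same correlation, centred on each experiment, among 9607 genes with a mean of at least 10 CPM. Ctsd was most like Atp6v1a, the catalytic subunit of the proton pump that acidifies lysosomes, at 0.98, and Aldh2, a mitochondrial dehydrogenase, at 0.97. Ctsl was most like Clcn5, a chloride/proton exchanger of endosomes, at 0.95, and Ctsb like Rab11a, a GTPase of recycling endosomes, at 0.97. Sord, sorbitol dehydrogenase, came second for both, at 0.94 with Ctsl and 0.96 with Ctsb. On the opposite side, one of the pair most like Ctsh was the phosphatase gene Ptpn6, at 0.99. Ctsc was most like the myeloid transcription factor gene Irf8, at 0.98, and Arpc5, at 0.97. Ctsz was most like Tmem189, at 0.98, and the proteasome gene Psmd4, at 0.97. Cst3 was most like Iscu, at 0.99, and Lta4h, at 0.98, but its correlation with Iscu was -0.07 over the 6 overexpression libraries, where Cst3 hardly varied. Ctss was most like Gm14253, at 0.96, and Sptlc1, at 0.94, and Ctsa like Dbnl, at 0.94, and Mrpl10, at 0.93.

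Ctsk had the loosest match of the 10, with Dcstamp, a membrane protein needed for cell fusion, at 0.86 and the sodium/proton exchanger gene Slc9b2 at 0.86. Dcstamp had 9.15, 16.0 and 13.7 CPM in MRC1+ TAMs, against 50.1, 54.0 and 77.5 CPM in CD11c+ TAMs. In the overexpression libraries it had 12, 1.10 and 4.94 CPM with miR-511-3p, against 3.70, 5.39 and 4.55 CPM with the mutated form. As for Ctsk, the first miR-511-3p library was the highest of those 6 and the second the lowest. Dcstamp and Slc9b2 were picked for likeness over these same libraries, so a shared order follows in part from the choice. Between the sorted groups Dcstamp did not overlap, whereas Ctsk did.

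**Figure D4:**
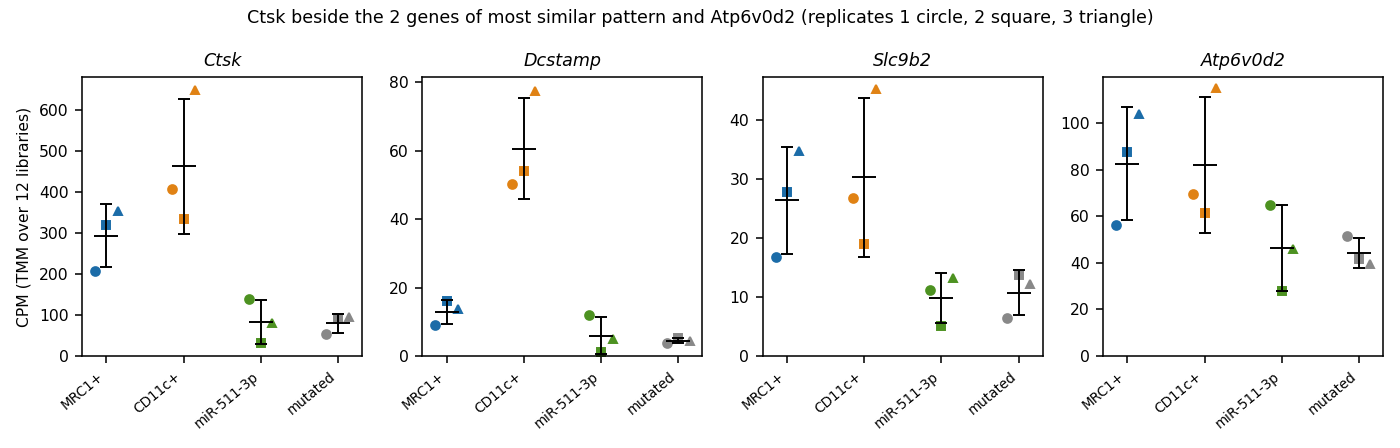
CPM of Ctsk, of the 2 genes most like it (Dcstamp and Slc9b2) and of Atp6v0d2 in every library, scaled over the 12 libraries, with group mean (long bar) and SD (short bars). In all 4 panels the second miR-511-3p library is the lowest of the 12.

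The plot of Ctsk-like genes adds Atp6v0d2, a proton pump subunit chosen after its values were seen. Atp6v0d2 had 56.4, 87.4 and 104 CPM in MRC1+ TAMs, against 69.3, 61.3 and 115 CPM in CD11c+ TAMs, and the groups overlapped. In the overexpression libraries it had 64.9, 28.1 and 46.0 CPM with miR-511-3p, against 51.4, 41.8 and 39.4 CPM with the mutated form. The second miR-511-3p library was the lowest of the 12 for Ctsk, Dcstamp, Slc9b2 and Atp6v0d2 alike.

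The rest of the pathway was read from lists around the 10 genes in the comparison of MRC1+ with CD11c+ TAMs, and their counts stand beside the 16.6% of all tested genes that passed. Of 14 other cathepsin genes, 4 had enough reads to be tested, 1 was higher and 1 lower. Ctsf, a further lysosomal cysteine cathepsin, had 23.9, 25.9 and 28.3 CPM in MRC1+ TAMs, against 6.39, 11.3 and 7.41 CPM in CD11c+ TAMs. The groups lay far apart, and the log2 fold change of 1.63 ± 0.20 was above that of any of the 10 (adjusted p = 0.00145, edgeR quasi-likelihood test, Benjamini-Hochberg adjustment). Ctse, an aspartic cathepsin of endosomes, averaged 0.589 ± 0.222 CPM in MRC1+ and 2.17 ± 0.489 in CD11c+ TAMs (log2 fold change -1.82 ± 0.33, adjusted p = 0.00826, same edgeR test with Benjamini-Hochberg adjustment). Of 16 other cystatin genes 4 were tested and 1 was lower, Cst7, the gene of the cystatin F that inhibits cathepsin C. Cst7 had 1.49, 2.43 and 2.07 CPM in MRC1+ TAMs, against 5.45, 7.21 and 9.06 CPM in CD11c+ TAMs (log2 fold change -1.83 ± 0.26, adjusted p = 0.00277, same edgeR test with Benjamini-Hochberg adjustment). Cstb, the cytosolic cystatin B, averaged 188 ± 18.3 CPM in MRC1+ and 198 ± 45.5 in CD11c+ TAMs and did not pass.

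A list of 10 genes held those that sort or process cathepsins, the partners of cathepsin A, Glb1 and Neu1, and the saposin precursor gene Psap. Of these 10 genes, 1 was higher and 3 were lower in MRC1+ TAMs, with a median log2 fold change of -0.03. The higher gene was Igf2r, the large mannose 6-phosphate receptor, at 611 ± 22.7 CPM in MRC1+ and 379 ± 74.7 in CD11c+ TAMs (log2 fold change 0.69 ± 0.14, adjusted p = 0.0147, edgeR quasi-likelihood test, Benjamini-Hochberg adjustment). The lower genes were Sort1, the receptor sortilin (-1.34 ± 0.25), Psap, the precursor of the saposins (-0.52 ± 0.12), and Gnptab, which makes the mannose 6-phosphate tag (-0.30 ± 0.08). Psap averaged 2857 ± 219 CPM in MRC1+ and 4105 ± 426 in CD11c+ TAMs and passed at an adjusted p of 0.0234, but not with the replicate block, at 0.0504 in edgeR with Benjamini-Hochberg adjustment. Leaving out 1 library ended the call of Igf2r without the second or the third MRC1+ library (adjusted p up to 0.0700), of Psap without those or the second or the third CD11c+ library (up to 0.101), and of Gnptab without any but the first CD11c+ library (up to 0.143), in edgeR with Benjamini-Hochberg adjustment. Lgmn, the legumain that activates cathepsins, averaged 1718 ± 69.4 CPM in MRC1+ and 1394 ± 183 in CD11c+ TAMs and did not pass. Of 7 other lysosomal peptidases, which include Lgmn again, 2 were higher, Tpp1 (0.69 ± 0.09) and Dpp7 (0.53 ± 0.13), and 2 were lower, Prcp (-0.56 ± 0.09) and Napsa (-3.87 ± 0.31). Dpp7 missed the threshold without any 1 MRC1+ library or the second CD11c+ library, with an adjusted p of up to 0.0999 in edgeR with Benjamini-Hochberg adjustment. Napsa, the aspartic peptidase napsin A, had 5.53, 2.58 and 4.57 CPM in MRC1+ TAMs, against 46.2, 54.4 and 84.5 CPM in CD11c+ TAMs, the widest gap among the peptidases listed (adjusted p = 0.000203, same edgeR test with Benjamini-Hochberg adjustment).

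Of 18 genes of acidification and of the lysosomal membrane, 2 passed, or 11.1%, beside the 16.6% of all tested genes. Cd63 was higher in MRC1+ TAMs (0.75 ± 0.10), Laptm5 was lower (-0.74 ± 0.15), and the median log2 fold change was -0.04. Of 4 regulators of lysosomal genes, Tfeb, the best known of the family, was lower, at 17.3, 14.0 and 15.4 CPM in MRC1+ TAMs, against 20.2, 24.5 and 30.8 CPM in CD11c+ TAMs. The groups did not overlap, and the log2 fold change was -0.68 ± 0.17 (adjusted p = 0.0268, edgeR quasi-likelihood test, Benjamini-Hochberg adjustment). Tfec, expressed mainly in macrophages, averaged 69.3 ± 1.41 CPM in MRC1+ and 51.6 ± 9.69 in CD11c+ TAMs and did not pass. Without the third MRC1+ library Laptm5 had an adjusted p of 0.0518, and Tfeb missed it when the second or the third MRC1+ or CD11c+ library was left out, up to 0.0987, in edgeR with Benjamini-Hochberg adjustment. Under miR-511-3p no gene of these lists passed, and 17 of the 18 genes of acidification and membrane had a log2 fold change above 0, with a median of 0.05 against 0.003 over all tested genes. Without the third mutated library 6 of the 18 lay above 0 and the median of the 18 was -0.018. Without the first miR-511-3p library 6 lay above 0 as well, with a median of -0.014. This shared sign, too, thus depends on single libraries.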

How the data were processed

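For each library the authors deposited a table of raw read counts by Ensembl gene, as whole numbers. Libraries were made with a TruSeq RNA kit after heat fragmentation, per the labels' protocols. Bowtie, TopHat 1.2.0, SAMtools 0.1.12a, HTSeq and the build mm9 (NCBIM37) are named in the submitters' processing notes; neither strand use nor counting mode is given in the sources used here. In the later GENCODE M21 annotation, 34.4% of the exon bases of Ctsd, 26.8% of Ctsl, 17.4% of Ctsa and 12.8% of Ctsb are shared with exons of other genes, so their counts are less certain. The 5 summary entries that name no gene stayed out of library sizes and tests; reads aligned to several places, 12.8% to 20.1% of a library, were not counted to genes. Symbols came from that annotation for 31819 of 36439 identifiers.

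Both comparisons used edgeR 4.0.16 in R 4.3.3 (TMM, filterByExpr, quasi-likelihood test, Benjamini-Hochberg adjustment over all tested genes at 0.05) on their own 6 libraries. CPM in the comparisons use TMM factors of those 6 libraries; levels across the 4 groups, the length-scaled levels and the likeness use factors of all 12. The SE was taken as the size of the log2 fold change over the square root of F. Alternatives were DESeq2 1.42.0, other scalings and filters, the replicate block, a fit of all 12 libraries, and each library left out. No pair of libraries within a group agreed within sampling noise (chi-square over its degrees of freedom, 9.18 to 33.0). Same-numbered libraries deviated together, with correlations of 0.104, 0.337 and 0.250 in the sorted and 0.147, 0.258 and 0.462 in the overexpression groups. Those between other numbers ran from -0.235 to -0.027 and from -0.385 to 0.166. Deviations were taken from the mean of 3 libraries, which lowers these other values. Since no label states pairs, they rest on the counts. Only the replicate block and the counts of pairs used them, and the main fits, with the p-values first given, held no block.

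Named were all 10 genes, up to 4 genes of lowest p that passed in each list, and the 2 genes most like each of the 10, of which 1 is not reported here; any further gene was picked with its values in view. The 10 genes and the lists were chosen with earlier results of these data known. The steps were tested on simulated counts.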

Additional observations from a re-analysis of the deposited data

How the results depend on the processing

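In the comparison of MRC1+ with CD11c+ TAMs, 6 of the 10 genes passed, where 16.6% of all tested genes did. The 6 became 8 with DESeq2 or without a filter on low counts, 7 with all 12 libraries and 6 with RLE scaling. It became 5 with upper-quartile scaling, with the 10 genes left out of the library totals, with a filter of 5 CPM in 3 libraries or with the replicate block. The share of all genes with an adjusted p that passed was 17.8% with DESeq2, 11.9% without the filter and 20.4% with all 12 libraries. With RLE scaling it was 16.7%, with upper-quartile scaling 17.1% and with the 10 genes left out 16.8%. The filter of 5 CPM gave 20.1% and the replicate block 17.8%. Leaving out each library in turn gave 3 to 7 of the 10 genes, where 8.02% to 29.6% of all tested genes passed. The count was 3 without any 1 MRC1+ library or the second CD11c+ library. In those fits the genes called among all genes fell to between 1270 and 1923, or 8.02% to 12.1%. The cause was not tested. The block ended the call of Ctsz (adjusted p = 0.0674) and Psap (0.0504) in edgeR with Benjamini-Hochberg adjustment and of no other gene named with its own adjusted p in the report.

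Over the 14 alternatives for each of the 10 genes, 117 of the values in the sorted comparison kept direction and side of the threshold, 17 lost the call, 6 gained it and none changed sign. Under miR-511-3p, 127 kept both and 13 changed sign, none past the threshold. With each library left out in turn the log2 fold change ran from -0.013 to 0.11 for Ctsa, -0.00321 to 0.17 for Ctsb, -0.067 to 0.22 for Ctsd, -0.0060 to 0.17 for Ctsh, -0.53 to 0.46 for Ctsk, -0.076 to 0.099 for Ctss and -0.020 to 0.088 for Ctsz, and it was -0.12 for Ctsk with the replicate block.

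As a share of all entries of the table, summary entries included, the 10 genes took 0.715% in MRC1+ and 0.678% in CD11c+ libraries, and 1.11% in miR-511-3p and 1.08% in mutated libraries. The principal transcript as a length was added after seeing the data. With 3 libraries a group, Ctsk had the widest interval of the 10 genes in both comparisons.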
